A study of Mus musculus with 6 samples.

Results

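The genes described here encode the nuclear subunits of the mitochondrial respiratory chain and of ATP synthase. They were chosen by symbol (Nduf followed by a, b, c, s or v and a digit, Sdha to Sdhd, Uqcr, Cox4 to Cox8, and Atp5a to Atp5l, without pseudogene symbols) among genes at 1 FPKM or more in at least 3 of the 6 libraries. FPKM give the fragments of a gene relative to its transcript length and to the depth of the library. In all, 73 genes qualified, of 21515 in the table and 9830 that passed the same filter and were tested. They comprised 36 genes of complex I, 4 of complex II, 8 of complex III, 12 of complex IV and 13 of complex V, with the complex taken from the symbol. A further 6 symbols that match lay under the filter (Ndufa4l2, Cox4i2, Cox6b2, Cox7b2, Cox8b and Cox8c), and Cox4i1 and Atp5f1 were not analysed here. The pseudogene symbol left out, Ndufb1-ps, was at 49.4, 110 and 80.4 FPKM in knockout replicates 1, 4 and 5 and 85.9, 82.7 and 80.5 in controls 6, 8 and 9.

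Bulk RNA-seq was done on mouse bone marrow cells (C57BL/6) immortalized with NUP98-NSD1, a leukaemia fusion, and with NRASG12D, an activated RAS protein, which both groups carry. The cells also received a lentivirus that expresses Cas9, a dTomato reporter and 1 guide RNA. The knockout group (replicates 1, 4 and 5) carried guide T44 against Clec12a, a myeloid lectin receptor known to dampen activation, and the control group (replicates 6, 8 and 9) carried a guide against the bacterial gene lacZ. Cells were sorted singly in triplicate and expanded, so a library may stem from a single founder cell, and 1 guide represents the knockout. All groups were grown for 48 h with 15% serum, hIL-6 (human interleukin-6, 10 ng/mL), mIL-3 (mouse interleukin-3, 6 ng/mL) and mSCF (mouse stem cell factor, 20 ng/mL). The question was how loss of Clec12a alters expression, and all p-values rest on the variation among these 6 libraries, whose independence within a group the labels do not state.

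The respiratory chain passes electrons from NADH and succinate to oxygen and pumps protons across the inner mitochondrial membrane, and ATP synthase makes ATP from that gradient. Complex I oxidises NADH, complex II oxidises succinate, complex III hands electrons to cytochrome c, complex IV reduces oxygen, and complex V is the synthase. Apart from complex II, each complex joins nuclear-encoded subunits to a few encoded by mitochondrial DNA. The nuclear regulators NRF1, GABP and YY1 are known to bind promoters of many subunit genes, and human acute myeloid leukaemia cells have been described as relying on oxidative phosphorylation.

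Across the libraries, FPKM totals were 604448, 699113 and 590211 in knockout replicates 1, 4 and 5 and 534440, 554534 and 550034 in controls 6, 8 and 9, and estimated depth ran from 33500000 to 60800000 fragments. Clec12a averaged 131 ± 37.6 FPKM in knockout and 228 ± 63.7 in control libraries (SD, n = 3 each), a log2 fold change of -0.79 with an adjusted p of 0.130, and the groups overlapped. An edit of the reading frame need not lower the transcript, so this level does not check the edit. Of 9 myeloid progenitor markers, 6 were at 1 FPKM or more in every library. The summed level of the 9 was 2356 to 5118 FPKM in knockout and 1278 to 3659 in control libraries. Elane weighed most in this sum, with a mean of 2580 FPKM. Mpo, on the same list, had the lowest log2 fold change of all genes tested, -5.66, so the sum does not give the direction of each marker. No marker of erythroid cells (5 genes, Hbb-bs at 0), megakaryocytes (3), T cells (4), B cells (4) or stroma (4) reached 1 FPKM in every library. Of 3 macrophage markers 2 did, with sums of 25.3 to 90.0 FPKM in knockout and 56.8 to 107 in control libraries. Of 3 mast cell and basophil markers, Mcpt8 did, and Cpa3 and Fcer1a were at 0.

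Among the 73 members, 1 passed the test at an adjusted p under 0.05 (limma, Benjamini-Hochberg over all 9830 genes), which is 1.37%, against 1.9% of all genes tested. That member was Cox6a2, the muscle isoform of a complex IV subunit, which rose from a near-absent level. It passed the filter only through the knockout libraries, where it is high, so it had to differ. Of the other 72 members 0 passed. No member was called lower, against 0.519% of all genes. When limma weighted the libraries, 3 members were called lower, against 2268 of all 9830 genes tested. Without such weights, 2 members were lower at an unadjusted p under 0.05. Unadjusted p under 0.05 was reached by 17 members in the higher direction, against a background of 12%, and the 2 lower ones stand beside a background of 15.9%. This balance did not hold once fold changes were adjusted for the length and base composition of transcripts: 4 members were then higher and 6 lower, against backgrounds of 10.1% and 15.2%. With libraries scaled to equal totals 10 were higher and 3 lower, against backgrounds of 6.96% and 24.7%. Without control 8 it was 5 and 1, against 716 and 824 of all 9830 genes tested. Without control 9 it was 8 and 1, against 1161 and 1555. Without knockout replicate 1 it was 32 and 2, against 975 and 1428.

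Most members were nonetheless a little higher in the knockout libraries; in bulk RNA, fewer cells of a type and less RNA per cell cannot be told apart. The fitted log2 fold change, on the log2(FPKM + 1) scale, was above 0 for 66 of 73 members (90.4%) against 46% of all genes tested, and its median was 0.37 over the members and -0.06 over all genes, but -0.09 over the members once each library was corrected for its trend with transcript length and GC content. Knockout and control values did not overlap for 25 members that were higher (34.2%, against 14.5% of all genes) and for 2 that were lower (2.74%, against 21.8%). After the length and GC correction these counts were 8 and 12, against 1173 and 2062 of all 9830 genes tested.

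Much of the difference lay in 1 library. Knockout replicate 4 held the highest value of 63 members (86.3%), against 28.2% of all genes tested. The median deviation of the members from their own means over the 6 libraries, in log2 units, was -0.10, 0.69 and 0.06 in knockout replicates 1, 4 and 5 and -0.08, -0.21 and -0.26 in controls 6, 8 and 9. Replicate 4 thus stood above all the others, and knockout replicate 1 lay at about the level of control 6. Summed over the members, the level was 15077, 25643 and 17239 FPKM in the knockout group, against 15800, 14015 and 13204 in controls. As a share of each library's FPKM total this was 2.49%, 3.67% and 2.92% against 2.96%, 2.53% and 2.40%, so the groups overlapped in both measures. Without replicate 4 the median log2 fold change of the members was 0.17, with 53 positive. In that setting 25 members were higher with no overlap, against 1695 of all 9830 genes tested. Replicate 4 also had the highest FPKM total and the highest summed myeloid marker level, 5118 FPKM, a sum in which Elane was the most abundant gene. The part of both in the members' values was not tested.

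**Figure D1:**
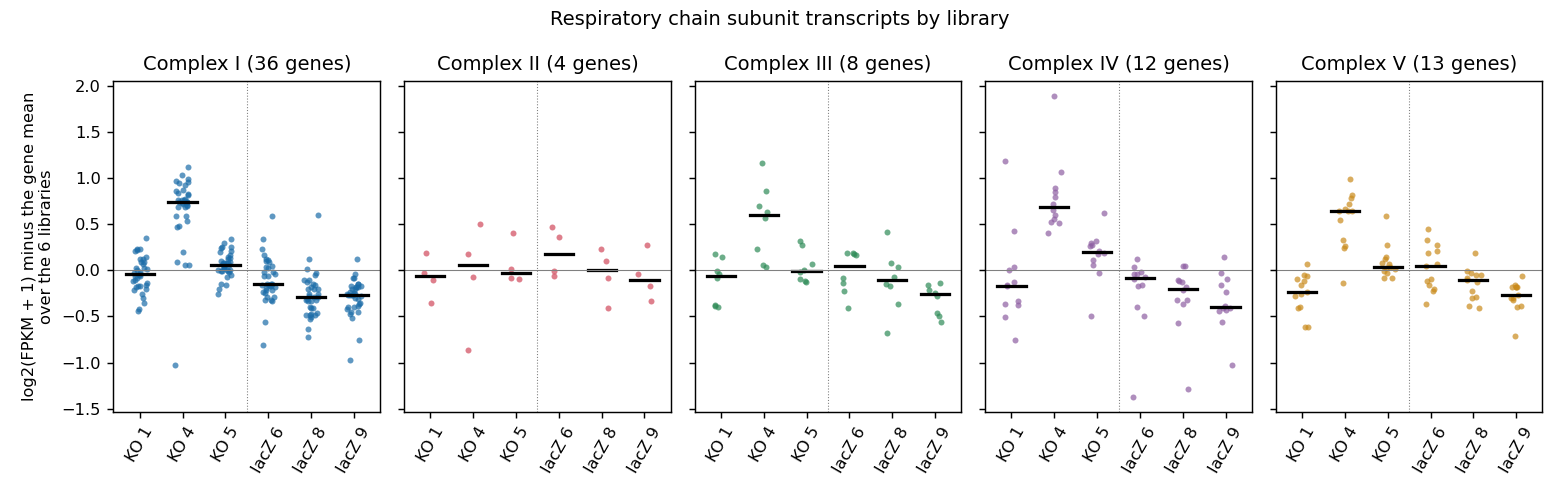
Each point is 1 gene: its log2(FPKM + 1) minus its mean over the 6 libraries (vertical axis), by library (horizontal axis) and complex, with black lines at the medians. In complexes I, III, IV and V the points of knockout replicate 4 sit highest, with medians of 0.60 to 0.74, while complex II stays near 0 there at 0.05.

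Transcript length moved with these values. The members have short transcripts, with a median of 782 bases against 2783 over the tested genes, and 58 of 73 are under 1500 bases against 18.4% of tested genes. Non-member genes under 750 bases had a median log2 fold change of 0.46, and the 35 members of that length also had 0.46. From 750 to 1500 bases the medians were 0.30 for non-members and 0.39 for 23 members, and from 1500 to 3000 bases they were -0.00 and 0.10 for 14 members. At 3000 bases and above, non-members had a median of -0.28 and the only member, Sdhc, had 0.32. The members thus followed the other genes of their length most closely in the shortest class. In knockout replicate 4 the median deviation of non-members was 0.72, 0.43, -0.01 and -0.34 from the shortest to the longest class. Spearman's rho of log2 fold change with length was -0.35 over the 73 members and -0.43 over 9820 genes, given as a description across genes that share the same 6 libraries. The part of length in the members' difference was not tested beyond the corrected values.

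**Figure D2:**
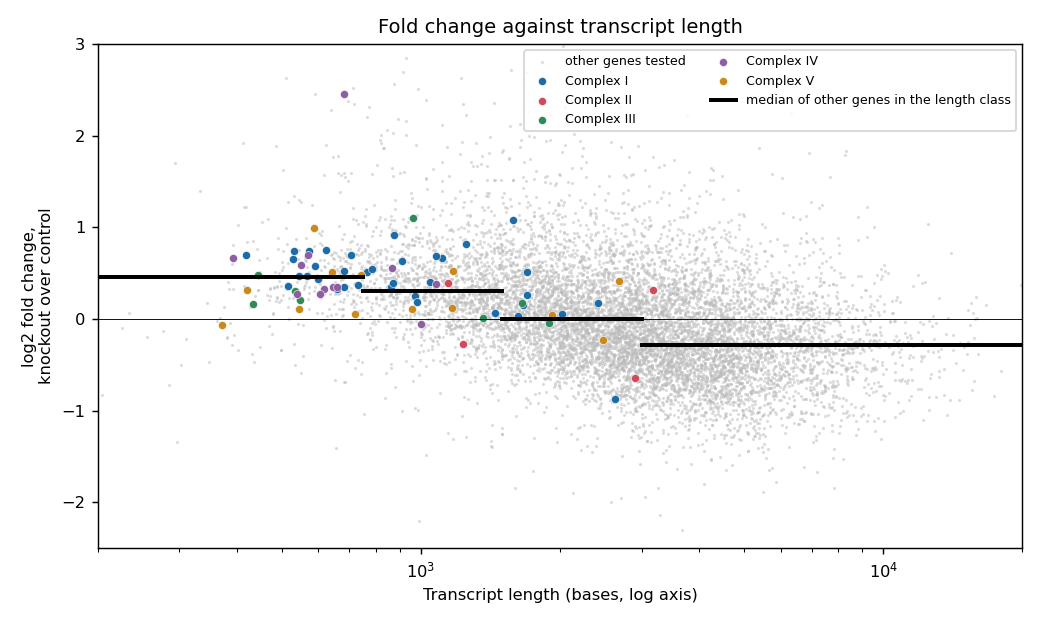
Fitted log2 fold change, knockout over control (vertical axis), against transcript length in bases (horizontal log axis) for the members, coloured by complex, and 9723 other genes in grey (24 lie outside the axes). Black bars mark the medians of the other genes in 4 length classes, from 0.46 in the shortest to -0.28 in the longest; most members lie in the shorter classes, and their median of 0.37 became -0.09 after correction for length and GC content.

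The promoters of 3 genes are shown, chosen by fold change among the 62 members with a promoter entry. Cox6a2, Uqcrq and Ndufs1, with more extreme log2 fold changes of 2.46, 1.11 and -0.88, had no entry. The promoters are those of Ndufv3 and Atp5g2, with the largest fold changes of the 62, and of Sdha, with the lowest. Each is the 250 bases before the RefSeq start of the gene (GRCm38.p6), read 5′ to 3′ along the gene's strand, and capitals mark the NRF1 motif (GCGCA, then any base, then GCGC). They lie at chr17:31519865-31520114 on the plus strand, chr15:102671048-102671297 on the minus strand and chr13:74350241-74350490 on the minus strand.
Ndufv3: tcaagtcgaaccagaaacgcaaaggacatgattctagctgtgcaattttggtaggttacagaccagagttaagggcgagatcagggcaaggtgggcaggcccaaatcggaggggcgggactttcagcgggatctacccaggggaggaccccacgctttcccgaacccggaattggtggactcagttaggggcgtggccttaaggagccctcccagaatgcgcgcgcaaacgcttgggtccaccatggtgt
Atp5g2: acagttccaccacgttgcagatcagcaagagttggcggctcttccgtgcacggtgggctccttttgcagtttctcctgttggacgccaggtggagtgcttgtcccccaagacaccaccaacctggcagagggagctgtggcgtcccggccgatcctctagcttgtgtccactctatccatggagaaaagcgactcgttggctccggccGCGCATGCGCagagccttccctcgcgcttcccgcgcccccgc
Sdha: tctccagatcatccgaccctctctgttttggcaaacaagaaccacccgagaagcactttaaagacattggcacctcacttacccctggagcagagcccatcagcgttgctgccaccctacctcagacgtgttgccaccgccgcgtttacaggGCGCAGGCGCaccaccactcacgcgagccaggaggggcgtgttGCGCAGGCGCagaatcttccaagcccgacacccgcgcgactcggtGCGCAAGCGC
The Sdha window holds 3 such matches, the Atp5g2 window 1 and the Ndufv3 window 0. Promoters were found for 62 of the 73 members. Searched on both strands, the NRF1 motif was in 12 of them (19.4%) against 3.86% of 27025 RefSeq promoters, and the GABP motif CCGGAAG was in 11 (17.7%) against 7.05%. The YY1 motif AANATGGC was in 4 (6.45%) against 3.93%, and 38 windows held none of the 3 motifs. The motifs can share bases with each other, and a match describes letters in the window, not binding. The Atp5g2 window lies inside the gene's annotated span, chr15:102662864-102672352, and the Sdha window overlaps its span, chr13:74322254-74350280. A member's promoter was the one nearest its annotated start, while for all genes the first listed was taken. The 27025 also include genes not tested here, so the shares are not strictly alike.

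Complex I, with 36 members, had a median log2 fold change of 0.47, which was -0.02 after the length and GC correction. No member of it passed the test. With no overlap, 17 were higher, against 14.5% of all genes, and 1, Ndufs1, was lower, against 21.8%. Among non-members under 750 bases 32.8% were higher with no overlap, and from 750 to 1500 bases 31.8%. The 29 accessory subunits were all positive, with a median of 0.53 (0.07 and 17 positive after correction). The 7 core subunits, which carry the flavin and the iron-sulfur clusters, had a median of 0.18 (-0.24 after correction and -0.02 with equal totals). By assembly module, the NADH-oxidising N module had a median of 0.49 over 8 genes and the quinone-reducing Q module 0.40 over 8. The proximal membrane arm had 0.43 over 9 genes and the distal arm 0.52 over 10. After correction these were 0.21, -0.11, -0.11 and 0.10 in the same order, so the direction of the Q module and of the proximal arm flipped.

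Ndufv3, an accessory subunit of the N module at chr17:31520115-31531331, had the largest complex I difference. It was measured at 292, 468 and 270 FPKM in knockout replicates 1, 4 and 5 and at 130, 146 and 202 in controls 6, 8 and 9. All knockout libraries lay above all controls, and knockout replicates 1 and 5 were close to each other. The group means were 343 ± 108 and 159 ± 37.6 FPKM (SD, n = 3 each), the log2 fold change was 1.08 (SE 0.27) and the adjusted p was 0.0714. Ndufa5, an accessory subunit of the Q module, stood at 253, 506 and 258 FPKM with the Clec12a guide and 251, 140 and 138 with the lacZ guide. Knockout replicates 1 and 5 lay barely above control 6, so the groups did not overlap but nearly met, and the log2 fold change of 0.92 had an adjusted p of 0.132. Ndufa13, also known as Grim19 and a membrane arm subunit, was at 114, 186 and 104 FPKM against 66.2, 73.2 and 82.0, with no overlap, a log2 fold change of 0.82 and an adjusted p of 0.0951. It shares 375 exon bases with Tssk6 on the opposite strand, and strand use is not given, so its value is uncertain.

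Ndufs1, the largest core subunit, which holds iron-sulfur clusters of the N module (chr1:63143596-63176833), went the other way. Its values were 40.1, 23.9 and 49.8 FPKM in the knockout group, against 75.2, 75.4 and 54.3 in controls. Every knockout library lay below every control, with the lowest value in replicate 4, where most other members were highest. The means were 38.0 ± 13.1 and 68.3 ± 12.2 FPKM (SD, n = 3 each), the log2 fold change was -0.88 (SE 0.28) and the adjusted p was 0.107. The other core subunits of the N module, Ndufv1, which binds NADH and the flavin, and Ndufv2, a further iron-sulfur subunit, did not share this. Ndufv1 was at 89.3, 87.7 and 88.2 against 90.8, 73.8 and 75.4 FPKM, and Ndufv2 was at 136, 178 and 115 against 127, 105 and 121. Their log2 fold changes were 0.15 and 0.26, with overlapping groups and adjusted p of 0.581 and 0.428.

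Ndufs3, Ndufs7 and Ndufs8 are core subunits of the Q module. Ndufs3 read 85.2, 126 and 82.4 FPKM with the Clec12a guide against 75.0, 68.6 and 74.0 with the lacZ guide, with no overlap, a log2 fold change of 0.40 and an adjusted p of 0.238. Ndufs7 and Ndufs8, which hold the last iron-sulfur clusters before quinone, had log2 fold changes of 0.39 and 0.18 and overlapping groups. For each of these last 2, replicate 4 was the highest library, at 206 and 191 FPKM.

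By level, the most abundant members assigned to complex I were Ndufa4, Ndufb8 and Ndufc1. Ndufa4 is now regarded as a subunit of complex IV, and it was at 392, 851 and 558 FPKM in the knockout group, against 561, 315 and 225 in controls. Control 6 lay above 2 of the 3 knockout libraries for this gene, and the log2 fold change of 0.74 had an adjusted p of 0.238. Ndufb8, a membrane arm subunit, was at 480, 720 and 343 against 358, 324 and 340 FPKM, and Ndufc1, a small membrane arm subunit, at 398, 671 and 409 against 354, 287 and 344. Their log2 fold changes were 0.53 and 0.55 with adjusted p of 0.241 and 0.192. Counting Ndufa4 with complex IV moved the median of complex I to 0.46 and that of complex IV to 0.38. The other 24 members of complex I, all accessory, had mean levels from 45.6 FPKM (Ndufb3) to 327 FPKM (Ndufa12) and log2 fold changes as deposited from 0.05 (Ndufa10) to 0.82 (Ndufa13). Of these, 13 were higher with no overlap and 23 were highest in replicate 4, against 14.5% and 28.2% of all genes.

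Complex II, the succinate dehydrogenase of the citric acid cycle and the only complex built without mitochondrially encoded subunits, had 4 members in 2 directions. Its median log2 fold change was 0.02, and -0.13 with quantile normalization, -0.18 with equal totals and -0.29 after the length and GC correction. Sdha, the flavoprotein that oxidises succinate (chr13:74322254-74350280), was at 115, 64.4 and 111 FPKM with the Clec12a guide and 163, 138 and 143 with the lacZ guide. All knockout libraries lay below all controls and replicate 4 was again the lowest; the means were 96.9 ± 28.3 and 148 ± 13.1 FPKM (SD, n = 3 each), the log2 fold change was -0.65 (SE 0.25) and the adjusted p was 0.141. Sdhb, the iron-sulfur subunit that pairs with Sdha, was at 213, 265 and 174 against 185, 141 and 166 FPKM, with overlapping groups, a log2 fold change of 0.39 and an adjusted p of 0.261. Of the membrane anchors that bind quinone, Sdhc was at 81.1, 98.7 and 115 against 83.2, 82.0 and 68.9 FPKM, a log2 fold change of 0.32. Sdhd was at 141, 171 and 181 against 231, 192 and 175 FPKM, a log2 fold change of -0.28. Both anchors overlapped between groups, with adjusted p of 0.304 and 0.369.

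Sdha and Sdhb differ in transcript length, at 2900 and 1142 bases, and the length trend of these libraries touches any ratio of the pair. As deposited, on the FPKM scale, Sdha made up 35.1%, 19.6% and 39.0% of their summed FPKM in knockout libraries and 46.7%, 49.5% and 46.2% in controls. The controls were close together, and all knockout libraries lay lower, replicate 4 most. This share was chosen after the values were seen and has no test. After the length and GC correction the log2 fold change of Sdhb went from 0.39 to -0.06 and that of Sdha from -0.65 to -0.52, so the pair lay closer together. The transcripts of Sdha and Ndufs1, the latter at 2626 bases, are longer than most of the members' transcripts. The corrected log2 fold change of Ndufs1 was -0.76, and the adjusted p was 0.166 for Sdha and 0.116 for Ndufs1. Without replicate 4 the uncorrected log2 fold changes of Sdha and Ndufs1 were -0.38 and -0.58.

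Complex III had a median log2 fold change of 0.19 over 8 members, and -0.09 with quantile normalization, -0.02 with equal totals and -0.19 after the length and GC correction. Uqcrq, a small subunit known to bind cytochrome b (chr11:53427922-53430831), stood apart. It was at 624, 1237 and 684 FPKM in the knockout group, against 413, 344 and 372 in controls. Each knockout library lay above each control, and replicate 4 was far above the others of its group. The means were 848 ± 338 and 376 ± 34.9 FPKM (SD, n = 3 each), the log2 fold change was 1.11 (SE 0.29) and the adjusted p was 0.0782. Uqcr11, another small subunit, was at 361, 674 and 347 against 337, 288 and 320 FPKM, with no overlap, a log2 fold change of 0.48 and an adjusted p of 0.284.

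The larger complex III subunits had small differences. Uqcrc1, a core protein, was at 442, 471 and 368 FPKM with the Clec12a guide and 449, 362 and 330 with the lacZ guide, and its partner Uqcrc2 was at 109, 114 and 99.6 against 125, 112 and 97.4. The Rieske iron-sulfur protein Uqcrfs1 was at 148, 162 and 165 against 180, 150 and 143 FPKM. Log2 fold changes were 0.17, -0.05 and 0.01, with 95% intervals of -0.31 to 0.65, -0.45 to 0.36 and -0.40 to 0.42. These intervals leave room for a change of either sign. The remaining 3 genes of complex III, Uqcrb, Uqcr10 and Uqcrh, had log2 fold changes as deposited of 0.16 to 0.31, overlapping groups and their maximum in replicate 4.

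**Figure D3:**
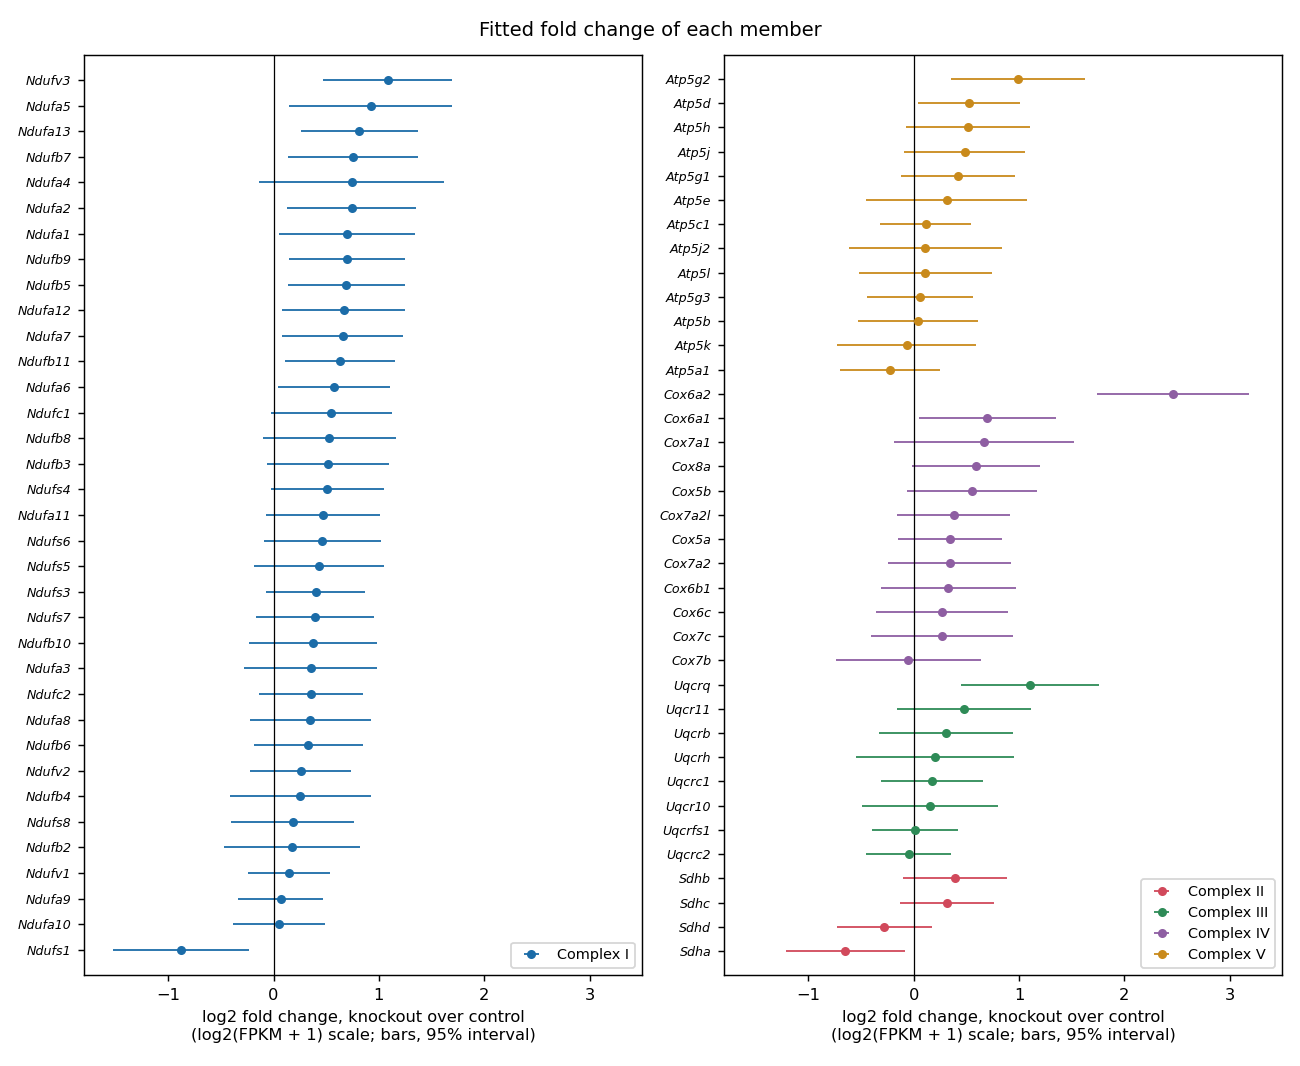
Fitted log2 fold change of 72 of the 73 members on the log2(FPKM + 1) scale, knockout over control (horizontal axis), with 95% intervals as bars and genes on the vertical axis, coloured by complex. Most points lie right of 0, Ndufs1 and Sdha lie left of it, and Cox6a2 at 2.46 lies furthest right; 38 of all 73 members change sign after correction for length and GC content.

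Complex IV had a median log2 fold change of 0.36 over 12 members, which was -0.10 after the length and GC correction. Cox6a2 (chr7:128205435-128206387), known as the isoform of heart and skeletal muscle, was at 5.35, 9.37 and 3.30 FPKM in the knockout group, against 0.0825, 0.144 and 0.375 in controls. The groups lay far apart, although its level stayed low beside other members. It rose with a log2 fold change of 2.46 (SE 0.32), a 95% interval of 1.74 to 3.18 and an adjusted p of 0.0167. The size of this fold was set by the 1 FPKM added before the logarithm, since the controls lay under it: the log2 fold change was 4.34 with 0.1 added and 4.96 with 0.01 added. It reached 1 FPKM in the knockout libraries only, so it passed the filter through the group where it is high and had to differ. Estimated from the depths, these values rest on about 182, 324 and 75 fragments in knockout libraries and 3, 5 and 12 in controls. Without a filter on low values its adjusted p was 0.0831, and without control 8 it was 0.0634. Of its exon bases, 10.3% overlap the integrin gene Itgad on the opposite strand, whose reads could not be told apart.

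Next by level were Cox7a1, a member well above the filter, and Cox4i2, which lay below it and is not a member. Cox7a1, the next lowest member and likewise known as a muscle isoform, was at 17.2, 27.3 and 8.60 FPKM with the Clec12a guide and 9.24, 8.08 and 12.3 with the lacZ guide, with overlapping groups, a log2 fold change of 0.67 and an adjusted p of 0.270. Cox4i2, an isoform known from lung and from low oxygen, missed the filter at 0.691, 0.311 and 0.415 FPKM against 0, 0.0993 and 0.0691. Its 3 knockout values were above the control values, but all lay under 1 FPKM and it was not tested.

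The common isoforms of complex IV were expressed at far higher levels. Cox6a1, the widely expressed partner of Cox6a2, was at 380, 789 and 532 FPKM in the knockout group, against 381, 339 and 288 in controls, a log2 fold change of 0.70 and an adjusted p of 0.157. Cox5a, a subunit on the matrix side, was at 463, 650 and 443 against 401, 399 and 404 FPKM, with no overlap, a log2 fold change of 0.35 and an adjusted p of 0.311. Cox8a, a small membrane subunit, was at 282, 550 and 381 against 300, 245 and 233 FPKM, a log2 fold change of 0.59 and an adjusted p of 0.186. All 3 had their maximum in replicate 4. Cox7b, Cox7c and Cox6b1, further small subunits, had log2 fold changes of -0.05, 0.27 and 0.33 with overlapping groups. In Cox7b and Cox7c the lowest library was knockout replicate 1, at 120 and 164 FPKM, and the highest was replicate 4, at 269 and 384. Cox5b and Cox6c, also small structural subunits, had log2 fold changes as deposited of 0.55 and 0.27 and overlapping groups.

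Complex V had a median log2 fold change of 0.12 over 13 members, and -0.08 with quantile normalization, -0.09 with equal totals and -0.20 after the length and GC correction. In the catalytic head the groups overlapped. Atp5a1, its alpha subunit, was at 261, 280 and 313 FPKM with the Clec12a guide and 385, 350 and 272 with the lacZ guide, and Atp5b, the beta subunit, was at 553, 806 and 704 against 809, 664 and 537. Their log2 fold changes were -0.23 and 0.04, with 95% intervals of -0.70 to 0.25 and -0.53 to 0.61. Atp5d, the delta subunit of the central stalk, was at 193, 287 and 195 against 158, 140 and 162 FPKM, with no overlap, a log2 fold change of 0.53 and an adjusted p of 0.153. Atp5j, of the peripheral stalk, was at 451, 804 and 531 against 439, 395 and 406 FPKM, a log2 fold change of 0.48 and an adjusted p of 0.236. Atp5k, a subunit known for its part in dimers of the synthase, was at 135, 303 and 203 against 240, 200 and 198 FPKM, a log2 fold change of -0.07. The other 5 genes of complex V outside the subunit c set (Atp5c1, Atp5e, Atp5h, Atp5j2 and Atp5l) had log2 fold changes as deposited of 0.11 to 0.52, with overlapping groups and the maximum in replicate 4 for each.

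Atp5g1, Atp5g2 and Atp5g3 encode the same mature subunit c of the proton-driven ring. Atp5g2 (chr15:102662864-102672352) was at 58.9, 126 and 95.7 FPKM in the knockout group, against 48.7, 47.4 and 38.0 in controls. The groups did not overlap, the means were 93.6 ± 33.7 and 44.7 ± 5.83 FPKM (SD, n = 3 each), the log2 fold change was 0.99 (SE 0.28) and the adjusted p was 0.0847. Atp5g1 was at 478, 772 and 509 against 431, 452 and 403 FPKM, and Atp5g3 at 249, 375 and 301 against 340, 277 and 264, with log2 fold changes of 0.42 and 0.06. As a share of the 3 genes' summed FPKM, Atp5g2 made up 7.50%, 9.91% and 10.6% in knockout libraries and 5.94%, 6.10% and 5.40% in controls, means of 9.32% ± 1.62 and 5.81% ± 0.370 (SD, n = 3). Atp5g3 made up 31.7%, 29.5% and 33.3% against 41.5%, 35.7% and 37.4%. Neither share overlapped between groups, and both had a p of 0.1 in an exact two-sided permutation test, the smallest that 3 against 3 libraries allow. The share of Atp5g1, 59.2% ± 2.65 against 56.0% ± 3.01 (SD, n = 3), had an exact p of 0.3.

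Cox7a2 made up 50.3% ± 5.09 of the sum of Cox7a2 and Cox7a2l in knockout and 50.9% ± 8.83 in control libraries (SD, n = 3; exact permutation p of 0.9). Cox7a2l is known from mouse strains for joining complexes III and IV into supercomplexes. Cox6a2 made up 1.06% ± 0.398 of the sum of Cox6a1 and Cox6a2 in knockout and 0.0647% ± 0.0576 in control libraries (SD, n = 3), with no overlap. As Cox6a2 passed the filter only through the knockout libraries, its share had to be higher there and was given no test. Cox7a1 made up 6.71% ± 3.16 against 4.97% ± 1.67 of its sum with Cox7a2 (SD, n = 3; exact permutation p of 0.5). Over the 5 shares tested, those of subunit c included, the Benjamini-Hochberg adjusted p was 0.25 for each exact p of 0.1, and 0.5, 0.625 and 0.9 for the others, and with 3 against 3 libraries none could pass 0.05.

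**Figure D4:**
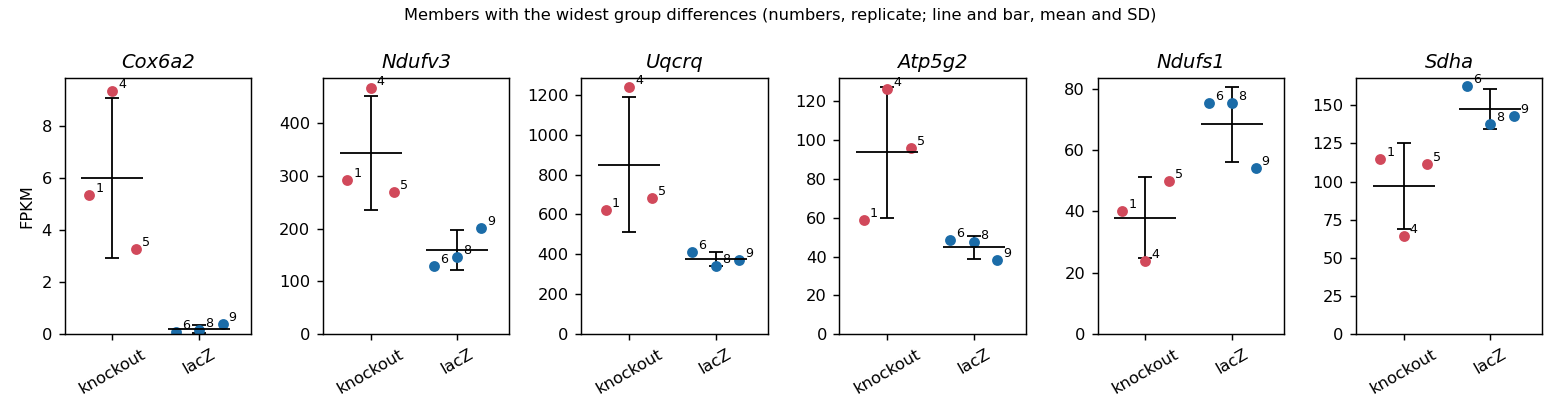
FPKM (vertical axis, from 0) of 6 members with wide group differences, by guide; points are libraries with their replicate numbers, and lines and bars are means and SDs of 3 libraries. Knockout points lie above all controls in Cox6a2, Ndufv3, Uqcrq and Atp5g2 and below them in Ndufs1 and Sdha, with replicate 4 the most extreme in each.

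The members resembled each other across libraries. The Pearson correlation of a member with the mean of the others, over the 6 libraries, was above 0.9 for 34 of 73 members, and the median over all pairs was 0.75, given as descriptions because all points share the same libraries. Cox5b had the highest value, followed by Atp5h at 0.999 and Atp5j at 0.991. Sdha at -0.92, Ndufs1 at -0.82, Atp5a1 at -0.20 and Sdhd at -0.13 were the 4 members below 0. The correlations were not computed for other genes. Non-members under 750 bases had median deviations of -0.14, 0.72 and 0.12 in knockout replicates 1, 4 and 5 and -0.20, -0.15 and -0.29 in controls 6, 8 and 9. The 35 members of that length had -0.16, 0.74 and 0.12 against -0.15, -0.26 and -0.30, so other short genes had a similar profile.

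**Figure D5:**
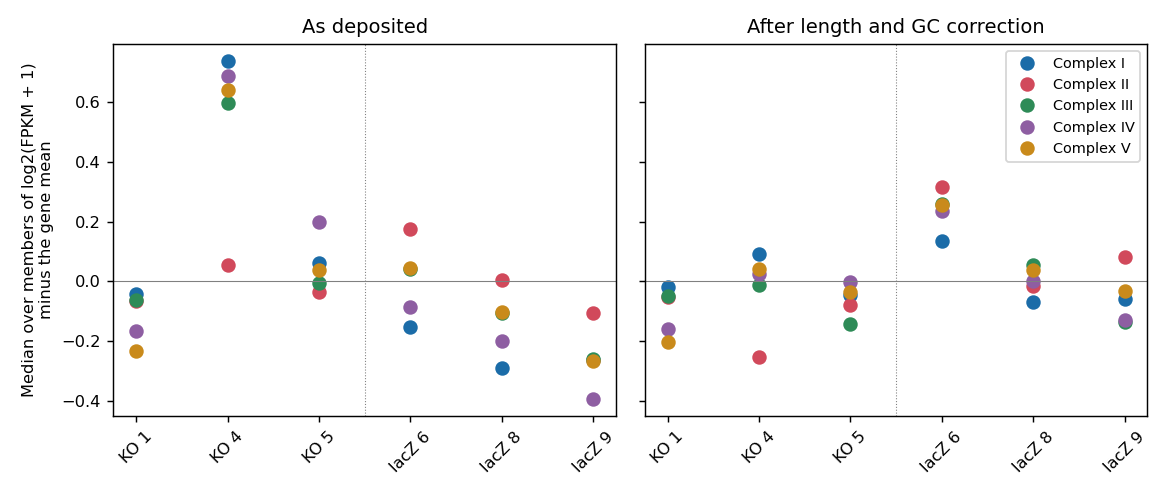
Median over the members of each complex of log2(FPKM + 1) minus the gene mean (vertical axis), by library (horizontal axis), as deposited (left) and with each library corrected for length and GC (right). On the left, replicate 4 stands at 0.60 to 0.74 for complexes I, III, IV and V; on the right it lies between -0.01 and 0.09 for these, and control 6 is highest in every complex, at 0.14 to 0.31.

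After the length and GC correction the order of libraries was another. The median deviation of all members was -0.08, 0.04 and -0.04 in knockout replicates 1, 4 and 5 and 0.20, -0.03 and -0.06 in controls 6, 8 and 9. Control 6 was then highest, and 28 members were positive and 45 negative in fold change. Of the members with wide differences, Cox6a2 had a corrected log2 fold change of 1.93 with an adjusted p of 0.0241 and Ndufv3 0.75 with 0.0887. Uqcrq had 0.62 with 0.102, and Atp5g2 had 0.37 with 0.276.

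For a few members, genes next to them on the chromosome moved in some of the same libraries, but not in all. The 29 nearest tested non-member genes around Atp5g2 on chromosome 15 had median deviations of 0.31, 0.41 and 0.10 in knockout libraries and -0.33, -0.23 and -0.28 in controls, and a median log2 fold change of 0.57. Around Uqcrh, the hinge protein of complex III on chromosome 4, the neighbours' median deviation was 0.55 in control 8 and from -0.21 to 0.06 elsewhere. Uqcrh itself was at 313 FPKM in control 8 against 201 and 167 in controls 6 and 9. Ndufs5, a complex I subunit on the same chromosome, was at 122 FPKM in control 8 against 91.5 and 80.5, and its neighbours had 0.29 there. On proximal chromosome 6, the neighbours of Ndufa4 had median deviations of 0.22, -0.14 and 0.26 in knockout libraries and 0.27, -0.34 and -0.33 in controls. Ndufa4 and Ndufa5 were likewise higher in control 6 than in controls 8 and 9. In knockout replicate 4 the members parted from their neighbours. Ndufa4, Uqcrh and Ndufs5 deviated by 0.95, 0.70 and 0.74 there, against -0.14, -0.21 and -0.05 for their neighbours. In knockout replicate 1, Ndufa4 and Atp5g2 deviated by -0.17 and -0.10, against 0.22 and 0.31 for their neighbours. The part of chromosome position in these members' values was not tested.

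Near-identical transcript copies could draw reads from some members. In the GENCODE M21 transcripts, 11 members had at least 1 copy at 95% identity or more over at least 50% of the transcript, and Atp5l had most, 9. The median log2 fold change was 0.42 for members with a copy and 0.35 for the 62 without. Ndufb6 shares 39.0% of its exon bases with Smim27 on the opposite strand and is uncertain for the same reason as Ndufa13.

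Related genes gave a mixed picture. The 7 tested subunits and partners that the symbol rule leaves out, such as Cycs, Cyc1, Ndufab1 and Atp5o, had a median log2 fold change of 0.39 (-0.15 after the length and GC correction), and none passed the test. Cycs, which encodes cytochrome c and moves electrons between complexes III and IV, was at 333, 483 and 281 FPKM with the Clec12a guide and 284, 215 and 210 with the lacZ guide. The 13 subunits encoded by mitochondrial DNA were all negative, with a median of -0.63, which lay from -0.87 to -0.57 over the scaling and correction settings. Among them mt-Nd4l, a membrane subunit of complex I, fell from 125 ± 32.2 to 48.4 ± 11.2 FPKM (SD, n = 3 each), a log2 fold change of -1.34 with an adjusted p of 0.0451. It was at 58.1, 50.9 and 36.1 FPKM in the knockout group, against 129, 154 and 90.3 in controls. Its adjusted p was above 0.05 in several other settings, up to 0.198 without control 8. The median deviation of these 13 genes was lowest in knockout replicate 5, at -0.99, and was 0.11 in replicate 4, the library in which the nuclear members were highest.

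Of 52 tested assembly factors, proteins that build the complexes without staying in them, 1 rose and 0 fell, against 1.38% and 0.519% of all genes. At an unadjusted p under 0.05, 8 were higher and 4 lower, against 12% and 15.9% of all genes. Their median log2 fold change was 0.14, and -0.06 with equal totals and -0.11 after the length and GC correction. The 1 was Cox14, needed to make the Cox1 subunit of complex IV, at 45.5, 62.8 and 39.8 FPKM with the Clec12a guide and 23.1, 19.9 and 24.2 with the lacZ guide. The groups did not overlap, and the log2 fold change of 1.08 had an adjusted p of 0.0490; it lay above 0.05 in several other settings, up to 0.210 without control 8. The 14 citric acid cycle enzymes had a median of -0.26, with 12 negative. None passed the test, and 1 was lower at an unadjusted p under 0.05, against 15.9% of all genes. The most abundant, Mdh2, was at 1079, 1143 and 697 FPKM in the knockout group, against 695, 656 and 690 in controls. Of 11 transcriptional regulators of respiratory genes none passed, and the median was -0.33. At an unadjusted p under 0.05, 2 were lower, against 15.9% of all genes. The regulators' transcripts had a median length of 3656 bases, and those of the cycle enzymes 2473.5. Non-member genes of 3000 bases or more had a median log2 fold change of -0.28, and those of 1500 to 3000 bases -0.00. The part of length in these medians was not tested. The 13 outer membrane and import genes had a median of -0.08 and none passed. At an unadjusted p under 0.05, 1 was higher, against 12% of all genes.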

How the data were processed

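The authors deposited 1 table of FPKM by gene symbol for 6 libraries. The submitters' processing notes name FastQC, the aligner STAR (version 2.5.2b) and genome build mm10. The counting tool, annotation, filters and strand setting were not given in the sources used here. As a unit FPKM adjusts for length and library size only. Depth was estimated from the steps of low values, of which 58.5% to 63.9% lay within 0.1 of a whole number, so whole reads were not recovered and no count test was run. Intervals and p-values therefore rest on the spread between libraries.

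Genes at 1 FPKM or more in at least 3 libraries (9830) were tested on log2(FPKM + 1) with limma 3.58.1 in R 4.3.3 (eBayes with an intensity trend, two-sided, Benjamini-Hochberg over all genes, threshold 0.05). "Rose" and "fell" are used only past it. Lengths, GC and coordinates came from GENCODE M21 (GRCm38), with 21414 symbols matched directly, 75 by synonym and 26 not at all, and promoters from RefSeq tables. Other steps used Python 3.11.15, pandas 2.3.3 and scipy 1.17.1.

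Members and lists were chosen with earlier results of these data known. Genes named with values were every member of complex II; in the other complexes the 3 most abundant and the 2 largest and smallest fold changes; members past the threshold; isoform sets, Ndufa4 and the complex I core; and, of related lists, genes past the threshold or the most abundant. Neighbours, copies, overlaps, Uqcrh, Ndufs5, Ndufa13, Cycs, Elane and Mpo were named after values were seen. The planned Cox4i1 share was not analysed here, and 1 member and 1 marker are not reported here by name. Other settings tried were no filter, a mean of at least 5 FPKM, smaller pseudocounts (0.1, 0.01), median ratio, quantile and equal-total scaling, length and GC correction by splines with 4 degrees of freedom, no trend, a robust prior, array weights, an adjusted p under 0.1, and leaving out each library.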

Additional observations from a re-analysis of the deposited data

How the results depend on the processing

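No paired analysis was possible because the groups share no replicate numbers. Members past the threshold numbered 1, but 0 without a filter on low values or with a mean of at least 5 FPKM (which drops Cox6a2), 20 with array weights (17 higher, 3 lower), 5 at an adjusted p under 0.1 (Cox6a2, Ndufv3, Uqcrq, Atp5g2 and Ndufa13), and from 0 to 1 when leaving out 1 library. Over all genes the 187 calls became 122 with a pseudocount of 0.01, 23 with no filter, 97 with a mean of at least 5 FPKM, 120 with equal totals, 4154 with array weights, 1106 at an adjusted p under 0.1, and from 20 to 197 without 1 library (20 without knockout replicate 4, 25 without control 8, 37 without knockout replicate 1). Scaling to equal totals moved the median of all genes from -0.06 to -0.24. Members higher with no overlap numbered 14 with equal totals, 8 after length and GC correction and from 25 to 41 without 1 library; members lower numbered 4 with quantile normalization, 4 with equal totals, 12 after the correction and from 2 to 4 without 1 library. Over all 9830 genes tested, the counts higher and lower with no overlap were 871 and 3098 with equal totals. They were 1173 and 2062 after the correction, and 1768 were higher without knockout replicate 1, which gave the 41 members. With quantile normalization 1882 of all genes were lower with no overlap. Without control 9, which gave 4 members lower, 3088 of all genes were. With array weights, 24 members were higher and 7 lower at an unadjusted p under 0.05, against 2317 and 2753 of all genes. The 17 members called higher and 3 called lower with these weights stood beside 1886 and 2268 of all genes.

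Medians changed sign as follows. After length and GC correction they were -0.091 over the members, -0.018 in complex I, -0.29 in complex II, -0.19 in complex III, -0.10 in complex IV and -0.20 in complex V. With quantile normalization they were -0.13 in II, -0.088 in III and -0.083 in V, with equal totals -0.18, -0.017 and -0.088, and with array weights -0.12, -0.036 and -0.093. Without 1 library they ran from 0.17 to 0.55 over the members, 0.21 to 0.61 in I, -0.076 to 0.11 in II, 0.045 to 0.42 in III, 0.20 to 0.60 in IV and -0.013 to 0.34 in V.

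Of all 73 members, 38 changed sign after length and GC correction, 18 with array weights, 15 with equal totals and 13 with quantile normalization. Among the 38 named by the rule, 18 did after the correction: Ndufb8 -0.051, Ndufs3 -0.056, Ndufs7 -0.24, Ndufs8 -0.36, Ndufv1 -0.18, Sdhb -0.056, Uqcr11 -0.21, Uqcrc1 -0.17, Uqcrfs1 -0.26, Cox5a -0.13, Cox6b1 -0.18, Cox7a2 -0.17, Cox7c -0.19, Cox8a -0.077, Atp5b -0.10, Atp5d -0.024, Atp5g3 -0.42 and Atp5j -0.0061. Uqcrh -0.30 and Ndufs5 -0.12, members not named by that rule, were among the others that changed sign. Ndufs1 and Sdha kept theirs. With array weights 7 did: Ndufs8 -0.073, Uqcrfs1 -0.0041, Cox6b1 -0.082, Cox7a2 -0.037, Cox7c -0.17, Atp5b -0.18 and Atp5g3 -0.093. With quantile normalization 4 did: Uqcrc1 -0.12, Uqcrfs1 -0.14, Atp5b -0.32 and Atp5g3 -0.21. With equal totals 6 did: Ndufs8 -0.022, Ndufv1 -0.054, Uqcrc1 -0.034, Uqcrfs1 -0.19, Atp5b -0.16 and Atp5g3 -0.15. With median ratios Uqcrc2 0.014 and Cox7b 0.009 did. Without 1 library, Ndufs8 from -0.040 to 0.36, Uqcrc2 from -0.14 to 0.038, Uqcrfs1 from -0.055 to 0.11, Cox7b from -0.27 to 0.31, Cox7c from -0.023 to 0.59, Atp5b from -0.11 to 0.19, Atp5g3 from -0.092 to 0.20 and Atp5k from -0.36 to 0.22 were the ranges of those that changed sign, and the difference in the share of Cox7a2 between knockout and control, in percentage points, ran from -5.35 to 3.38. The cause of these shifts was not tested beyond the settings themselves.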
